A study of Homo sapiens with 15 samples.

Results

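The genes described here are 36 genes of glycolysis and of the response to hypoxia-inducible factor (HIF), chosen by symbol from the 43388 gene symbols counted in each library. They comprise 2 glucose transporters, 17 glycolytic enzymes, 3 kinases that control glycolytic flux, 2 monocarboxylate transporters, 11 other HIF targets and HIF1A itself. RNA was sequenced from A549, a wild-type cell line from a human lung adenocarcinoma with features of alveolar epithelium, so that each group is a sample of 1 cell line. All-trans retinoic acid (ATRA, 1e-05 mM) or its ethanol vehicle was given for 24 hours, followed by 72 hours in 95% oxygen (hyperoxia) or 21% oxygen (normoxia). There were 2 vehicle libraries and 3 ATRA libraries at each oxygen level. A further 2 libraries at each oxygen level carry a label that gives the oxygen exposure alone and names no vehicle, and they are called oxygen-alone libraries below. A library whose labels give 2 different conditions was left out of all comparisons. The labels do not say whether libraries of a group came from separate cultures, so the p-values measure the spread between these libraries, which may be technical.

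Glycolysis turns glucose into pyruvate, and lactate dehydrogenase turns pyruvate into lactate, which leaves the cell through monocarboxylate transporters. HIF is a pair of an oxygen-regulated alpha subunit, such as HIF1A, and a stable beta subunit. Where oxygen is plentiful, EGLN prolyl hydroxylases mark the alpha subunit for capture by VHL and destruction, and where oxygen is scarce the pair binds promoters and raises genes for glucose uptake, glycolysis and vessel growth. The control lies mainly on the HIF1A protein, which was not measured in these libraries. Retinoic acid acts through nuclear receptors that bind DNA directly.

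The libraries held between 2642377 and 5605072 counts on genes. The smallest number read as a signal here, 3 counts, corresponded to between 0.535 and 1.14 in each 1000000 of these raw totals. These limits cover counting error only. Levels are given as CPM, the number of counts in each 1000000 of a library after TMM normalisation. Hyperoxia oxygen-alone replicate 1 stood apart, with 12657 genes detected against at least 16465 in each of the other 13 libraries compared. For genes given by name, oxygen-alone calls that were lost without it are stated. Most oxygen-alone fold changes, and the medians, are given only with it. Epithelial markers were present in every library, with KRT8 between 1133 and 5913 CPM, and all 4 adipocyte markers together reached at most 4 counts. EPCAM was low throughout, at no more than 4.80 CPM. The summed level of the 5 epithelial markers ran from 1685 to 9562 CPM, and in the vehicle comparison all 5 had lower levels in hyperoxia, 4 with a call. With ATRA in hyperoxia 4 of the 5 were called higher than with vehicle (median log2 fold change 0.99), in normoxia their median was 0.42 with adjusted p of at least 0.316, and KRT19 had an interaction call (1.37, adjusted p = 0.0497). Among immune markers, PTPRC was at no more than 1 count and CD3E at 0, while CD68, which is also expressed outside immune cells, was higher in hyperoxia, with log2 fold changes of 1.63 in the vehicle and 1.53 in the ATRA libraries and with a call in the oxygen-alone libraries too. The summed level of the 4 immune markers ran from 17.4 to 103 CPM, that of 3 endothelial markers from 0 to 6.26 and that of 4 fibroblast markers from 0 to 12.5. The part of these shifts in the results below was not tested. In bulk RNA, fewer cells that express a gene and less RNA per cell cannot be told apart.

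The upstream sequences of the 5 members that changed with oxygen in the vehicle libraries are shown because HIF response elements commonly lie close to the start of a gene, together with that of LDHA, which was chosen after its values were seen. Each is the 250 bases before a start site in RefSeq (GRCh38.p14), printed from 5′ to 3′ on the strand of the gene. Capitals mark the core letters of the HIF response element on either strand. One core is ACGTG, which reads as CACGT on the other strand. The other core is GCGTG, which reads as CACGC on the other strand. A run of CACGTG counts as 2 overlapping matches.
ADM: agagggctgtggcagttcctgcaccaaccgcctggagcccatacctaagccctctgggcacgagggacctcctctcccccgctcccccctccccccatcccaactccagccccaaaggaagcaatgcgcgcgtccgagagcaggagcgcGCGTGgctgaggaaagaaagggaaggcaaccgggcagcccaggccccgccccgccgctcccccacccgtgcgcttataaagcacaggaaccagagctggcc
PFKFB4: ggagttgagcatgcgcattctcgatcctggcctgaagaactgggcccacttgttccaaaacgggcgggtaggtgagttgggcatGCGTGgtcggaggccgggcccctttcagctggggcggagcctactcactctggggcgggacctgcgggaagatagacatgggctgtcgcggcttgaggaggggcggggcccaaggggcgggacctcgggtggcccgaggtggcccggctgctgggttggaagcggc
KDM3A: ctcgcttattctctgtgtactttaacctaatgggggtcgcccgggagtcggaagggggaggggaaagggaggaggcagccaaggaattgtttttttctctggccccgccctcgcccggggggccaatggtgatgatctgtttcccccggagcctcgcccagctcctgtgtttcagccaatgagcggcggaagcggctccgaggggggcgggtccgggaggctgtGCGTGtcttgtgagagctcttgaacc
PFKFB3, upstream start: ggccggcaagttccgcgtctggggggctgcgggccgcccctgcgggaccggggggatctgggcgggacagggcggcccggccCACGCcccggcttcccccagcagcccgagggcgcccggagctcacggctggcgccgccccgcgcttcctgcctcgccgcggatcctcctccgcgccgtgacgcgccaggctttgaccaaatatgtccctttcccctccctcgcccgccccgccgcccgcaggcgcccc
PFKFB3, downstream start: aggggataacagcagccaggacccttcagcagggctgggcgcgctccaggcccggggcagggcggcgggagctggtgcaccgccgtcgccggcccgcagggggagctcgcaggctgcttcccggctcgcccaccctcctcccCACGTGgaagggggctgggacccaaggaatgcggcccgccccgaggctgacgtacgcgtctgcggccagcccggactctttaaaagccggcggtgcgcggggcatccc
PGK1: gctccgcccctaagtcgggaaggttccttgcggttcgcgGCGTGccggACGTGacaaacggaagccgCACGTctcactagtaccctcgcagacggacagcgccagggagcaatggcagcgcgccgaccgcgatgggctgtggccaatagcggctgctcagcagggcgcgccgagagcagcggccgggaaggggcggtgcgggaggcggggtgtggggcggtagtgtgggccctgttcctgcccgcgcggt
LDHA: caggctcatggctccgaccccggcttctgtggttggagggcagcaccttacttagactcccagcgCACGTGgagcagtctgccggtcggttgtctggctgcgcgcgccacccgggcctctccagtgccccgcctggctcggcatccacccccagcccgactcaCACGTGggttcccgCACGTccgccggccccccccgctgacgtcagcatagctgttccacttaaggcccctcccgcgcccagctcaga
The ADM window is chr11:10304823-10305072 on the plus strand, and its single GCGTG began 101 bases before the start site. The PFKFB4 window, chr3:48556804-48557053 on the minus strand, also held 1 GCGTG, 166 bases before its start, as did the KDM3A window, chr2:86441121-86441370 on the plus strand, 26 bases before its start. A second KDM3A start lies downstream, and its window overlaps the one shown and holds the same letters. The 2 windows of PFKFB3, on the plus strand, are chr10:6144671-6144920, with 1 CACGC, and chr10:6202682-6202931, with a CACGTG. The PGK1 window, chrX:78103998-78104247 on the plus strand, held 3 matches, and that of LDHA, chr11:18394313-18394562 on the plus strand, held 5, which lie in 2 copies of CACGTG and 1 CACGT. A second LDHA window, not shown, held 1 CACGC. Among the windows shown, those of LDHA and PGK1 held the most matches, and ADM, whose called rise with hyperoxia was the largest, had 1.

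RefSeq windows were at hand for 31 of the 36 members, and SLC2A3, SLC16A1, VEGFA, BNIP3L and NDRG1 had none. At least 1 match to either core was present in 35 of the 59 windows of members (59.3%) and in 43.2% of 35116 windows of all genes. ACGTG was held by 22 of the 59 (37.3%) against 18.5% of all windows, and GCGTG by 19 (32.2%) against 32.2%. No test was made of these shares, and a match does not show that a factor binds there.

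Levels were compared between genes as CPM per kilobase of the longest GENCODE transcript, over the 14 libraries. GAPDH, the dehydrogenase of the middle of the pathway, had the highest median of the members, 2380 CPM per kilobase, followed by the pyruvate kinase PKM with 1358, the enolase ENO1 with 786 and LDHA with 641. The aldolase ALDOA followed with 470 and changed places with LDHA when the MANE Select transcript was used for length. Reads counted for LOC112694756, which lies over ALDOA, came to 97.6% of the ALDOA count, so the level of ALDOA cannot be separated from that of LOC112694756.

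One isozyme dominated at most steps, and it was the same one in 14 of 14 libraries with either length. HK1 lay above HK2, PFKP above PFKL and PFKM, ALDOA above ALDOC, ENO1 above ENO2, LDHA above LDHB and SLC2A1 above SLC2A3. The median ratio per kilobase was 101 for HK1 to HK2 and 53.9 for ENO1 to ENO2, but 1.47 for LDHA to LDHB, so that both lactate dehydrogenase genes were well expressed. The ratio for HK2 leaves out 1 library without HK2 counts. HK2 had only 139 counts over the 14 libraries, so the size of that ratio is uncertain. The order of the 2 monocarboxylate transporters depended on the length used, since SLC16A1 lay above SLC16A3 in 14 of 14 libraries with the longest transcript and in 7 of 14 with the MANE transcript. At the low end, CA9, a carbonic anhydrase widely used as a marker of hypoxia, had 9 counts over the 14 libraries and was the 1 member that did not pass the filter on low counts. No library had more than 3 counts of CA9, so no level could be given for it.

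**Figure D1:**
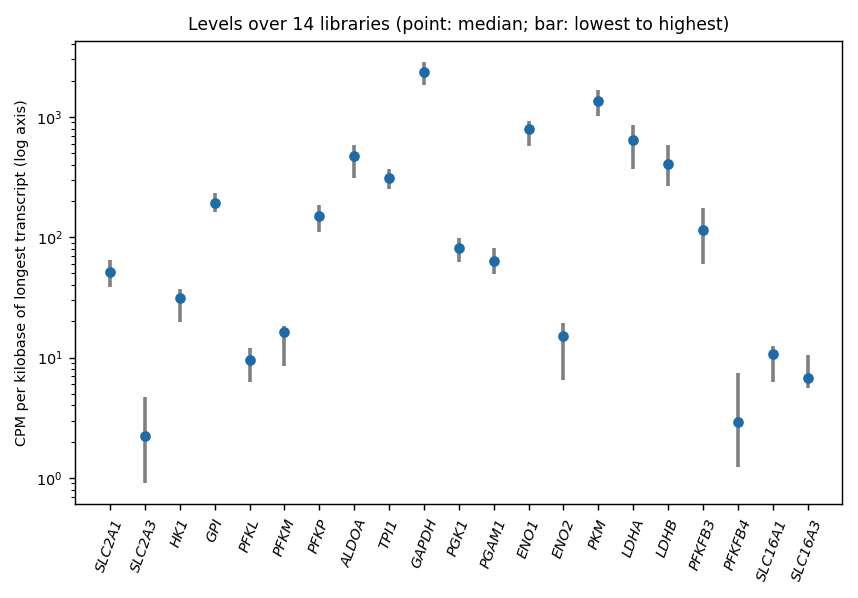
Levels of glucose transporters, glycolytic enzymes, flux kinases and monocarboxylate transporters in CPM per kilobase of the longest transcript on a log axis. Points are medians and bars run from the lowest to the highest of 14 libraries; members with 0 counts in a library (HK2, ALDOC and PDK1) are not drawn, and GAPDH has the highest median, 2380.

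Hyperoxia was compared with normoxia 3 times, in the vehicle, the ATRA and the oxygen-alone libraries, and no library served in more than 1 of these comparisons. The question is how the genes of the oxygen-sensing and glucose-using machinery stood after 3 days of excess oxygen. ADM and PFKFB4 rose in all 3 comparisons, KDM3A rose less and PFKFB3 fell in all 3. The remaining glycolytic enzymes and HIF targets mostly gave no call, although 7 of the 17 enzymes passed with ATRA. Of the 35 members tested, 5 passed an adjusted p of 0.05 in the vehicle libraries (3 higher, 2 lower), where 17.5% of 14957 genes tested passed (8.68% higher, 8.81% lower). In the ATRA libraries 12 passed (5 higher, 7 lower), beside 22.7% of all genes (11.4% higher, 11.3% lower), and in the oxygen-alone libraries 6 passed (3 higher, 3 lower), beside 15.2% of 15339 genes (7.57% higher, 7.58% lower). These shares of members, 14.3%, 34.3% and 17.1%, are near the background except in the ATRA libraries. The median log2 fold change of members was -0.06, 0.07 and -0.03, beside 0.01, 0.01 and -0.10 over all genes.

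Single libraries moved these counts. In the vehicle comparison 2 members passed without hyperoxia replicate 2, 2 without normoxia replicate 1 and 3 without normoxia replicate 2. In the oxygen-alone comparison 4 members passed without hyperoxia replicate 1, the library that stood apart, 16 without hyperoxia replicate 2, so that replicate 1 alone stood for hyperoxia, and 3 without normoxia replicate 1. When the fit held only the 4 oxygen-alone libraries, ADM alone of the members kept its oxygen-alone call, while PFKFB4 (adjusted p = 0.194), PFKFB3 (0.205), KDM3A (0.325), LDHB (0.186) and HIF1A (0.307) lost it, with fold changes close to those of the fit of 14 libraries. All genes called numbered 58 in that fit. Within 1 comparison, groups of 2 or 3 libraries can lie apart without any true difference. The share of all genes that did so is not given, so such separation is description only here and below.

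By role, the 17 glycolytic enzymes gave 1 call in the vehicle libraries, 7 in the ATRA libraries (2 higher, 5 lower) and 1 in the oxygen-alone libraries. These are 5.88%, 41.2% and 5.88% of the enzymes, beside 17.5%, 22.7% and 15.2% of all genes. Of the 10 other HIF targets tested, ADM and KDM3A were called in each comparison (20% of the list) and the others in none. Of the 3 flux kinases, PFKFB4 and PFKFB3 were called in each comparison (66.7% of a very short list), in opposite directions. The 2 glucose transporters and the 2 monocarboxylate transporters gave no edgeR call in the 3 comparisons, although SLC2A1 or SLC2A3 had an unadjusted p under 0.05 in 2 of them. Members called in all 3 comparisons numbered 3 higher and 1 lower, where 4.05% and 4.47% of genes were. Called or not, 11 members were higher and 11 lower in all 3, beside 27.7% and 29.7% of genes, and 13 changed sign between comparisons.

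**Figure D2:**
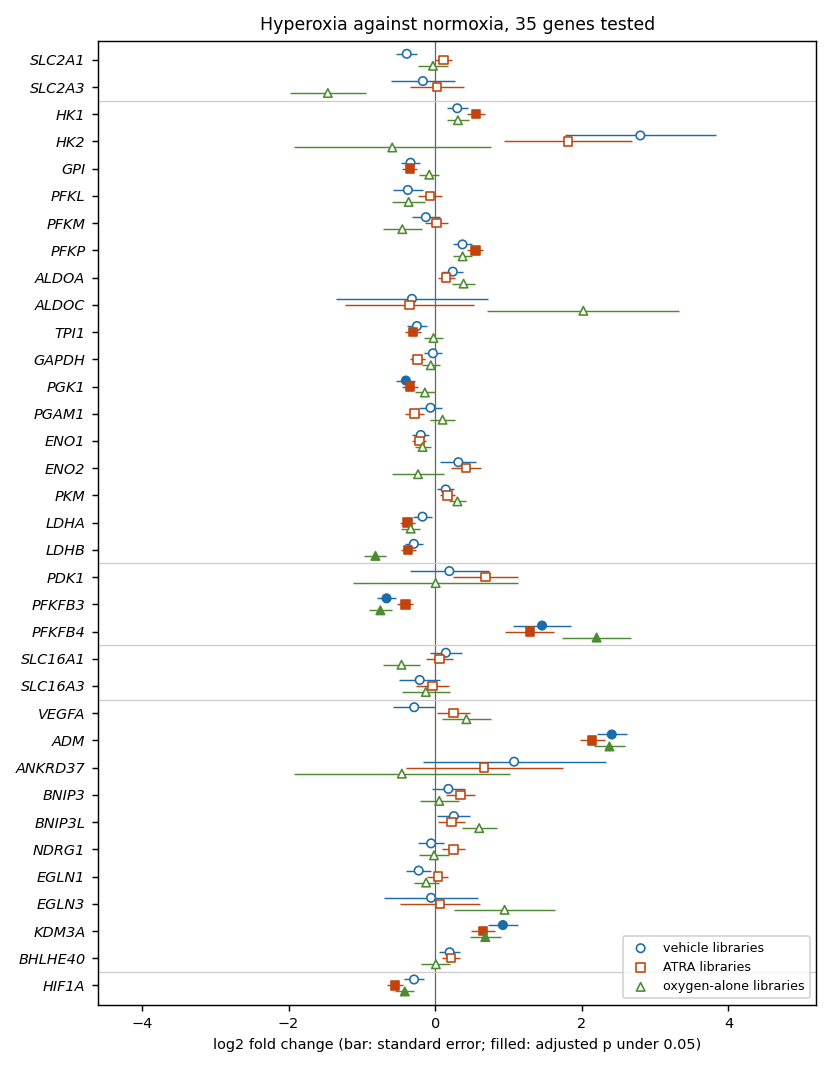
Log2 fold change of hyperoxia over normoxia for the 35 members tested, in vehicle (circles), ATRA (squares) and oxygen-alone (triangles) libraries, grouped by role. Bars are standard errors and filled symbols have an adjusted p under 0.05; ADM and PFKFB4 lie furthest to the right with filled symbols in all 3 comparisons.

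ADM encodes adrenomedullin, a vasodilator peptide whose gene is a classical HIF target (chr11:10305073-10307397, plus strand). In normoxia it stood at 29.9 and 28.9 CPM in the vehicle libraries, 20.9, 17.2 and 27.8 in the ATRA libraries and 23.8 and 29.5 in the oxygen-alone libraries. In hyperoxia the corresponding values were 144 and 168 CPM with vehicle, 94.8, 88.8 and 108 with ATRA and 136 and 140.1 with oxygen alone. Every hyperoxia library lay above every normoxia library, and within hyperoxia the 3 ATRA libraries were the lowest. The rise was 5.31-fold in the vehicle libraries (log2 fold change 2.41, standard error 0.20, adjusted p = 3.57e-08), with a log2 fold change of 2.14 with ATRA (adjusted p = 1.08e-08) and 2.38 with oxygen alone (adjusted p = 3.35e-06). It kept its call in every alternative and with every library left out.

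PFKFB4 and PFKFB3 make and break down the sugar phosphate that activates phosphofructokinase, and both are known HIF targets. PFKFB4 (chr3:48517684-48563136, minus strand) was low in normoxia, at 7.3 and 8.34 CPM with vehicle, 7.04, 7.18 and 5.73 with ATRA and 4.29 and 5.52 with oxygen alone. In hyperoxia it reached 17.0 and 26.1 CPM with vehicle, 14.1, 12.2 and 22.2 with ATRA and 26.2 and 18.9 with oxygen alone. The 7 hyperoxia libraries did not overlap the 7 normoxia libraries. The vehicle libraries gave a rise of 2.75-fold (log2 fold change 1.46, standard error 0.40, adjusted p = 0.0125), and the log2 fold change was 1.29 with ATRA (adjusted p = 0.00756) and 2.20 with oxygen alone (adjusted p = 0.00474).

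At these low counts the PFKFB4 call depended on single libraries. In the vehicle comparison it was lost without hyperoxia vehicle replicate 2 (log2 fold change 1.08, adjusted p = 0.247), normoxia vehicle replicate 1 (adjusted p = 0.116) or normoxia vehicle replicate 2 (adjusted p = 0.0857). It was lost in the ATRA comparison without hyperoxia ATRA replicate 3 (0.98, adjusted p = 0.0588) and in the oxygen-alone comparison without normoxia oxygen-alone replicate 1 (1.98, adjusted p = 0.0888). The gene UCN2 overlaps PFKFB4 and held 30.3% as many counts, and its own log2 fold change was 1.89 (adjusted p = 0.116) in the vehicle libraries, 0.41 (0.707) with ATRA and 2.92 (0.049) with oxygen alone. The vehicle call of PFKFB4 was also lost in the fit of 14 libraries (0.0557). How reads were shared between the 2 genes was not tested.

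PFKFB3 (chr10:6144921-6326637, plus strand), which favours synthesis of the activator, went the other way. In normoxia it stood at 478 and 541 CPM with vehicle, 700.3, 661 and 791 with ATRA and 419.9 and 561 with oxygen alone. In hyperoxia it stood at 306 and 337 CPM with vehicle, 551, 576 and 497 with ATRA and 269.7 and 314 with oxygen alone. Within each of the 3 treatments the hyperoxia libraries lay below the normoxia libraries, but the hyperoxia ATRA libraries overlapped the normoxia libraries without ATRA. The vehicle comparison gave a log2 fold change of -0.66, with a standard error of 0.13 and an adjusted p = 0.00121, and the values were -0.41 with ATRA (adjusted p = 0.00914) and -0.75 with oxygen alone (adjusted p = 0.00364). No call of PFKFB3 was lost when a library was left out, but the oxygen-alone call was lost with only the groups compared in the fit (0.205).

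The ratio of PFKFB3 to PFKFB4 per kilobase ran from 7.97 to 36.4 over the 7 hyperoxia libraries and from 50.2 to 107 over the 7 normoxia libraries, without overlap. PFKFB3 remained the more abundant of the pair in 14 of 14 libraries. This ratio was chosen after the values of both genes were seen, and its separation restates their opposite changes rather than adding to them.

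KDM3A, a histone demethylase, is itself oxygen-dependent and a HIF target (chr2:86437044-86492716, plus strand). It stood at 31.3 and 35.3 CPM with vehicle, 37.0, 44.6 and 36.7 with ATRA and 43.3 and 37.9 with oxygen alone in normoxia. In hyperoxia it stood at 60.2 and 66.6 CPM with vehicle, 68.1, 51.7 and 64.7 with ATRA and 71.5 and 58.6 with oxygen alone. All 7 hyperoxia libraries lay above all 7 normoxia libraries. The vehicle comparison gave a log2 fold change of 0.92, with a standard error of 0.21 and an adjusted p = 0.00293, and the values were 0.65 with ATRA (adjusted p = 0.00739) and 0.68 with oxygen alone (adjusted p = 0.0411). The vehicle call was lost without hyperoxia vehicle replicate 2 (adjusted p = 0.0613) or normoxia vehicle replicate 1 (0.0586). The oxygen-alone call was lost without hyperoxia replicate 1 (0.217), normoxia replicate 1 (0.155) or normoxia replicate 2 (0.26), and with library totals in place of TMM (0.0505) or no filter (0.121).

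PGK1, which makes the first ATP of glycolysis (chrX:78104248-78129295, plus strand), was the only glycolytic enzyme that edgeR called in the vehicle libraries. It stood at 477 and 455 CPM in normoxia and 362 and 344 in hyperoxia with vehicle, at 444, 364 and 413 in normoxia and 301, 330.2 and 333 in hyperoxia with ATRA, and at 440.3 and 429.9 in normoxia and 440.2 and 348 in hyperoxia with oxygen alone. The groups did not overlap with vehicle or with ATRA but did with oxygen alone, where hyperoxia replicate 1 was as high as normoxia. Separation of such small groups is description only. The vehicle comparison gave a log2 fold change of -0.40, with a standard error of 0.13 and an adjusted p = 0.0346, and the values were -0.34 with ATRA (adjusted p = 0.0229) and -0.14 with oxygen alone (adjusted p = 0.508). The vehicle call was lost without any 1 of its 4 libraries, with adjusted p of 0.11 and 0.201 without hyperoxia replicates 1 and 2 and 0.163 and 0.0993 without normoxia replicates 1 and 2. The ATRA call was lost without hyperoxia ATRA replicate 1 (0.0734) or normoxia ATRA replicate 1 (0.108). In the fit of 14 libraries PGK1 lost both its vehicle (0.082) and its ATRA call (0.0558).

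HIF1A and PFKP are described because their 7 hyperoxia and 7 normoxia libraries did not overlap, which was seen before they were chosen. Over all genes, 6.34% were higher and 7.31% lower in hyperoxia without overlap, and among the 35 members 4 were higher (PFKP, PFKFB4, ADM and KDM3A) and 1 was lower (HIF1A). HIF1A (chr14:61695513-61748258, plus strand) stood at 441 and 440.2 CPM with vehicle, 621, 521 and 528 with ATRA and 526 and 482 with oxygen alone in normoxia. In hyperoxia it stood at 369 and 352 CPM with vehicle, 415, 358 and 367 with ATRA and 395 and 361 with oxygen alone. Its fall was called with ATRA (log2 fold change -0.55, standard error 0.11, adjusted p = 6.99e-04) and with oxygen alone (-0.42, adjusted p = 0.0382), and the vehicle libraries gave -0.29 (adjusted p = 0.146), which was called with only the groups compared (0.0187) and with pooled controls (0.00753). Pooled controls are the vehicle and oxygen-alone libraries of an oxygen level taken as 1 group. The oxygen-alone call was lost without hyperoxia replicate 1 (adjusted p = 0.0652) or normoxia replicate 1 (0.172). The antisense gene HIF1A-AS2 overlaps HIF1A, held 25.7% as many counts and gave -0.24 with vehicle, -0.71 with ATRA and -0.70 with oxygen alone. The library kit keeps strand, but whether the counting used it is not given in the sources used here.

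PFKP, the platelet-type phosphofructokinase and the main one in these cells, stood between 359 and 473 CPM in normoxia and between 512 and 605 in hyperoxia. Its rise was called with ATRA (log2 fold change 0.55, standard error 0.11, adjusted p = 8.64e-04), and the log2 fold change was 0.37 with vehicle (adjusted p = 0.0594) and 0.37 with oxygen alone (0.0745). HK1, the hexokinase of most tissues, rose with ATRA as well (0.56, adjusted p = 0.00209), beside 0.30 with vehicle and 0.31 with oxygen alone, neither called by edgeR. With vehicle, PFKP was called by DESeq2 (0.0181), with only the groups compared (0.00443) and with pooled controls (0.00747), and HK1 with pooled controls (0.0297), while DESeq2 called PFKP with oxygen alone too (0.0219). GPI, TPI1 and LDHA fell with ATRA, with log2 fold changes of -0.35, -0.30 and -0.38. edgeR did not call these genes in the other comparisons. With vehicle, GPI was called by DESeq2 (adjusted p = 0.00679) and with only the groups compared (0.00494), TPI1 with only the groups compared (0.0378) and LDHA with pooled controls (0.04). DESeq2 also called LDHA with oxygen alone (0.0113).

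These 3 calls were near the threshold. GPI lost its call without hyperoxia ATRA replicate 2 (adjusted p = 0.0545) or normoxia ATRA replicate 1 (0.0589), and LDHA without hyperoxia ATRA replicate 1 (0.0619). TPI1 lost it without any of hyperoxia ATRA replicates 1, 2 and 3 (0.102, 0.0748 and 0.0622) and without normoxia ATRA replicate 1 (0.189) or 3 (0.0873), and in 4 alternative fits, with adjusted p from 0.0588 to 0.0861. Since the ATRA comparison has 3 libraries a group and the others 2, a call in the ATRA libraries alone does not show a different response, and the test of the difference is given further on.

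LDHB, the lactate dehydrogenase subunit of oxidative tissues, fell with ATRA (-0.37, adjusted p = 0.0138) and with oxygen alone (log2 fold change -0.82, standard error 0.15, adjusted p = 0.00164), beside -0.29 with vehicle (adjusted p = 0.13). The vehicle value was called by DESeq2 (0.0283), with only the groups compared (0.0162) and with pooled controls (-0.54, adjusted p = 0.00371). In the oxygen-alone libraries it stood at 905 and 799 CPM in normoxia and 407 and 563 in hyperoxia. The groups did not overlap, and the lower hyperoxia value belonged to replicate 1. The ATRA call was lost in the fit of 14 libraries (0.0594), with pooled controls (0.0814) and without hyperoxia ATRA replicate 2 (adjusted p = 0.0535).

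Several textbook HIF targets gave no edgeR call in the oxygen comparisons. The glucose transporter SLC2A1 stood between 132 and 220.4 CPM in normoxia and between 132 and 193 in hyperoxia, and had log2 fold changes of -0.39 with vehicle, 0.11 with ATRA and -0.03 with oxygen alone. DESeq2 and the fit of only the groups compared did call the fall of SLC2A1 with vehicle (adjusted p = 0.0395 and 0.00477). VEGFA, the vessel growth factor, had log2 fold changes of -0.29, 0.25 and 0.42 in the same order.

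HK2, the hexokinase most often raised by HIF, had the largest fitted change of the members with vehicle, from few counts. It stood at 1.04 and 0.887 CPM in normoxia and 8.75 and 4.94 in hyperoxia with vehicle, at 0.261, 0.624 and 1.56 in normoxia and 3.25, 1.15 and 4.25 in hyperoxia with ATRA, and at 1.76 and 1.44 in normoxia and 0 and 2.28 in hyperoxia with oxygen alone. The groups did not overlap with vehicle, but they overlapped with ATRA and with oxygen alone, where hyperoxia replicate 1 had no count. The vehicle comparison gave a log2 fold change of 2.80, with a standard error of 1.03 and an adjusted p = 0.0663, which did not pass, while DESeq2 (adjusted p = 0.0337) and the fit of only the groups compared (0.00232) did call it. With ATRA the log2 fold change of HK2 was 1.81 (adjusted p = 0.147).

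A further 17 members were not called in any oxygen comparison. They were the isozymes PFKL, PFKM, ALDOA, ALDOC, PGAM1 and ENO2, the transporters SLC2A3, SLC16A1 and SLC16A3, the pyruvate dehydrogenase kinase PDK1, the HIF hydroxylases EGLN1 and EGLN3, the mitophagy genes BNIP3 and BNIP3L, and NDRG1, BHLHE40 and ANKRD37. Their log2 fold changes ran from -0.37 to 1.08 with vehicle (median -0.06), from -0.35 to 0.68 with ATRA (median 0.07) and from -1.47 to 2.02 with oxygen alone (median -0.02). The highest value with oxygen alone was that of ALDOC, which stood at 23.0 CPM in hyperoxia replicate 1. Of these 17 members, 16 had the opposite sign in at least 1 alternative or with a library left out in at least 1 comparison, so no direction is given for them. With oxygen alone, 9 passed in at least 1 alternative or with a library left out, 8 of them without hyperoxia replicate 2, where replicate 1 alone stood for hyperoxia.

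GAPDH, PKM and ENO1, the most abundant enzymes, had log2 fold changes of -0.03, 0.14 and -0.20 with vehicle, none called by edgeR, while DESeq2 called the fall of ENO1 (adjusted p = 0.0484). Reads of SENP1, which overlaps PFKM, came to 73.2% of the PFKM count, and SLC16A3, ANKRD37 and BNIP3 each overlap a gene with more counts than their own.

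**Figure D3:**
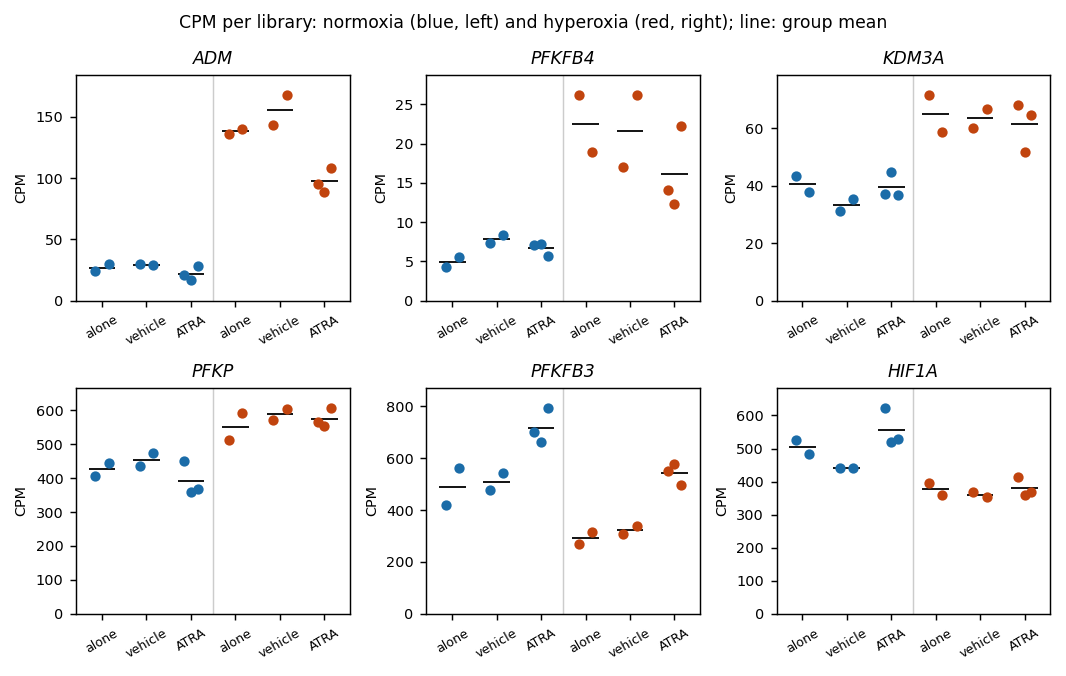
CPM per library of ADM, PFKFB4, KDM3A, PFKP, PFKFB3 and HIF1A in the 6 groups, normoxia on the left of each panel and hyperoxia on the right. Points are libraries and lines group means; ADM lies between 17.2 and 29.9 CPM in normoxia and between 88.8 and 168 in hyperoxia.

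Other genes of the pathway, from lists of HIF regulators, further HIF targets and neighbouring glucose metabolism, showed how the members sat among their relatives. Of 14 HIF subunits and regulators tested, 5 passed in the vehicle libraries (4 higher, 1 lower), 7 with ATRA (6 higher, 1 lower) and 6 with oxygen alone (5 higher, 1 lower). These are at least 35.7% of the list in each comparison, beside the 17.5%, 22.7% and 15.2% of all genes given above. The lists are short and were chosen with earlier results of these data known, and their shares were not tested. EP300, an acetyltransferase that HIF recruits, rose in each comparison, with log2 fold changes of 0.84 in the vehicle, 0.46 in the ATRA and 0.72 in the oxygen-alone libraries. EPAS1, the other main HIF alpha subunit, rose in all 3 as well (0.57, 0.66 and 0.79), from between 275 and 426 CPM in normoxia to between 477 and 671 in hyperoxia, and was named after its values were seen. The messages of the 2 alpha subunits stood in opposite directions, HIF1A lower and EPAS1 higher.

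These calls too rested in part on single libraries and on the libraries fitted together. With only the groups compared, the oxygen-alone calls of EP300 (adjusted p = 0.165) and EPAS1 (0.188) were lost, and in the fit of 14 libraries the vehicle call of EPAS1 (0.0641). EP300 lost its call with ATRA without normoxia ATRA replicate 3 (adjusted p = 0.0761) and with oxygen alone without normoxia replicate 2 (0.0657). EPAS1 lost its vehicle call without hyperoxia replicate 1 (0.126) or 2 (0.0695) or normoxia replicate 1 (0.121) or 2 (0.0996), and its oxygen-alone call without hyperoxia replicate 1 (0.0697) or normoxia replicate 1 (0.117).

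Among 22 further HIF targets tested with vehicle, 4 were higher and 4 lower, which is 36.4% of the list beside 17.5% of all genes. With ATRA 4 were higher and 3 lower (31.8%, beside 22.7% of all genes). With oxygen alone 4 of 23 were higher and 2 lower (26.1%, beside 15.2%). PLOD2, a collagen lysyl hydroxylase, was at 153 and 169 CPM in normoxia and 692 and 630.1 in hyperoxia with vehicle (log2 fold change 2.03, standard error 0.13, adjusted p = 1.24e-09). Its rise was smaller with ATRA (194, 213 and 201 CPM in normoxia and 359, 336 and 388 in hyperoxia, 0.83 on the log2 scale), with a difference between the 2 rises of -1.20 (adjusted p = 0.00173), and it was 1.73 with oxygen alone. DDIT4, an inhibitor of mTOR signalling, fell from 149 and 167 to 37.1 and 41.1 CPM with vehicle (log2 fold change -2.01, standard error 0.21, adjusted p = 4.25e-07), with log2 fold changes of -0.75 with ATRA and -1.67 with oxygen alone. HILPDA, which promotes lipid droplets, fell, with log2 fold changes of -1.68, -0.84 and -1.40 in the vehicle, ATRA and oxygen-alone libraries, with its ATRA call lost without normoxia ATRA replicate 3 (adjusted p = 0.0634). With only the groups compared, the oxygen-alone calls of DDIT4 (0.0774) and HILPDA (0.182) were lost. These HIF targets changed in both directions.

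The pentose phosphate pathway branches from glycolysis and makes NADPH, which is used against oxidants. Of its 7 genes, 3 were called lower and none higher in each of the 3 comparisons, but only 2, TKT and PGD, were called in all 3. Each time 3 genes are 42.9% of a short list, beside 8.81%, 11.3% and 7.58% of all genes called lower. TKT, transketolase, fell from 1932 and 2162 to 943 and 1062 CPM with vehicle (log2 fold change -1.03, standard error 0.14, adjusted p = 1.55e-05), with log2 fold changes of -0.78 with ATRA and -0.85 with oxygen alone. PGD, the second NADPH-making enzyme, fell, with log2 fold changes of -0.79, -0.52 and -0.72 in the vehicle, ATRA and oxygen-alone libraries. TIGAR, which lowers the activator that PFKFB enzymes make, rose, with log2 fold changes of 1.06, 1.20 and 1.24 in the same order and was named after its values were seen. Its oxygen-alone call was lost without hyperoxia replicate 1 (0.69, adjusted p = 0.0849) or normoxia replicate 2 (adjusted p = 0.0775). With only the groups compared, TKT (0.124), PGD (0.13) and TIGAR (0.216) lost their oxygen-alone calls.

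Of 13 genes for the entry of pyruvate to mitochondria, 3 were lower and none higher with vehicle and with ATRA, which is 23.1% of the list beside 17.5% and 22.7% of all genes, and with oxygen alone edgeR called 0, with 3 at an unadjusted p under 0.05. PC, pyruvate carboxylase, fell with vehicle (log2 fold change -1.72, standard error 0.25, adjusted p = 3.18e-05), with a log2 fold change of -0.62 with ATRA (adjusted p = 0.0279), and was at -0.83 with oxygen alone (adjusted p = 0.0557). The ATRA call of PC was lost in the fit of 14 libraries (0.0945), with pooled controls (0.113) and with only the groups compared (0.0512), and without hyperoxia ATRA replicate 2 (0.0519) or 3 (0.0767) or normoxia ATRA replicate 1 (0.0815) or 3 (0.194). The PC value with oxygen alone was called by DESeq2 (0.0379), with no filter (0.00718) and without hyperoxia replicate 1 (0.0468), hyperoxia replicate 2 (just under the threshold) or normoxia replicate 1 (0.048).

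Among 17 further genes of glycolysis and gluconeogenesis tested, 1 was higher and 1 lower with vehicle, 2 were higher with ATRA, and 1 was higher and 2 lower with oxygen alone, and these shares of 11.8%, 11.8% and 17.6% stand beside the 17.5%, 22.7% and 15.2% of all genes. PCK2, the mitochondrial enzyme that makes phosphoenolpyruvate, fell from 34.4 and 36.7 to 13.3 and 7.24 CPM with vehicle (log2 fold change -1.83, standard error 0.31, adjusted p = 2.34e-04), with a log2 fold change of -2.01 with oxygen alone. In the ATRA libraries PCK2 stood at 41.0, 45.3 and 40.3 CPM in normoxia and 35.2, 40.9 and 22.2 in hyperoxia and was not called (-0.37, adjusted p = 0.275). Its oxygen-alone call was lost without hyperoxia replicate 1 (-1.04, adjusted p = 0.0967), normoxia replicate 1 (0.103) or normoxia replicate 2 (0.148), and with only the groups compared (0.462), and its vehicle call in the fit of 14 libraries (0.0745).

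ATRA was compared with vehicle at each oxygen level to see how these genes differed with the retinoid in normoxia and in hyperoxia. Among the glycolytic enzymes, LDHA and ENO1 fell with ATRA at both oxygen levels and GAPDH and LDHB in hyperoxia, where PFKFB3 and VEGFA rose and ADM fell. In normoxia 2 of the 35 members passed (LDHA and ENO1, both lower), beside 1.25% of all genes tested (0.816% higher, 0.435% lower). In hyperoxia 7 passed (2 higher, 5 lower), beside 2.21% of all genes (1.52% higher, 0.695% lower). In normoxia 5.71% of members were lower with a call, beside 0.435% of all genes. Without normoxia vehicle replicate 1 or 2 edgeR called 0 members in normoxia, and in hyperoxia it called 3 without ATRA replicate 1, 4 without ATRA replicate 2, 1 without vehicle replicate 1 and 3 without vehicle replicate 2. The fit of 14 libraries called 3 members in hyperoxia and 1 in normoxia, and with the oxygen-alone libraries as controls, an alternative chosen after seeing the data, 2 and 1 passed. Of the epithelial markers 4 rose with ATRA in hyperoxia, where their summed level was 1685 to 1784 CPM with vehicle and 2805 to 4203 with ATRA, without overlap. In normoxia it was 5849 to 6804 CPM with vehicle and 6896 to 9562 with ATRA. The part of these markers in the ATRA results was not tested. The 2 ATRA comparisons share no library, but each uses the vehicle and ATRA libraries of the oxygen comparisons.

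Of the 17 glycolytic enzymes, 15 had a fold change below 0 in normoxia and 14 in hyperoxia, and 14 did in both, whereas 27.8% of all genes were below 0 and 28.3% above 0 in both. The median log2 fold change of the enzymes was -0.21 in normoxia and -0.29 in hyperoxia, beside 0.00 in both over all genes. Together the 17 enzymes took between 1.30% and 1.48% of gene counts in the 6 ATRA libraries and between 1.61% and 1.90% in the 8 libraries without ATRA. The shares did not overlap between these libraries. The sum rests largely on PKM (246803 counts over the 14 libraries), GAPDH (241641), ENO1 (114804) and LDHA (82755). PKM, ENO1 and LDHA were each lower without overlap in the ATRA libraries, so the sum largely restates them. It does not show a fall of each of the 17 enzymes. Only LDHA, ENO1, GAPDH and LDHB among the enzymes passed the test in an ATRA comparison.

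**Figure D4:**
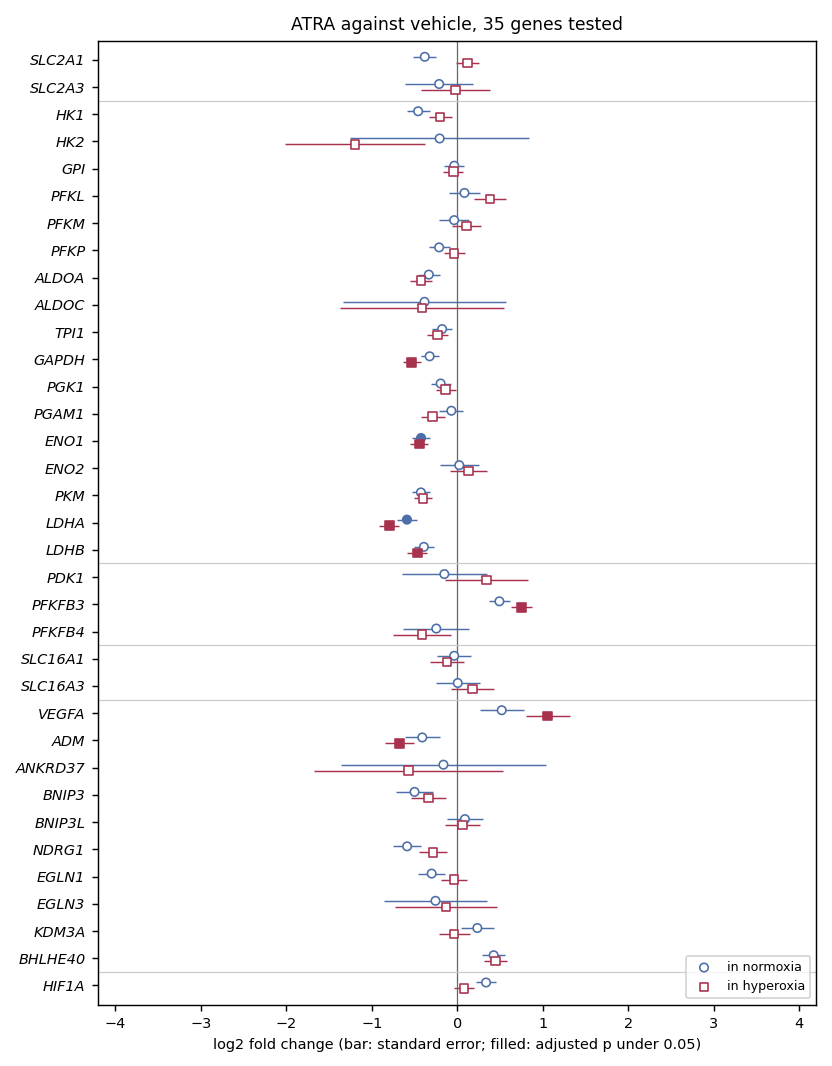
Log2 fold change of ATRA over vehicle for the 35 members tested, in normoxia (circles) and hyperoxia (squares), grouped by role. Bars are standard errors and filled symbols have an adjusted p under 0.05; LDHA and ENO1 are filled at both oxygen levels and lie to the left of 0.

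LDHA, the lactate dehydrogenase subunit that favours lactate (chr11:18394563-18408425, plus strand), gave the largest called fall of the members. In normoxia it stood at 1802 and 1773 CPM with vehicle, 1934 and 1693 with oxygen alone and 1195, 1246 and 1126 with ATRA. In hyperoxia it stood at 1655 and 1515 CPM with vehicle, 1459 and 1416 with oxygen alone and 821, 899 and 1019.9 with ATRA. All 6 ATRA libraries lay below the 8 libraries without ATRA. The test gave a log2 fold change of -0.59, with a standard error of 0.12 and an adjusted p = 0.00792 in normoxia and a log2 fold change of -0.79, with a standard error of 0.12 and an adjusted p = 3.30e-04 in hyperoxia. In normoxia the call was lost without vehicle replicate 1 (adjusted p = 0.124) or 2 (0.106), and in hyperoxia it was kept with every library left out.

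ENO1, which makes phosphoenolpyruvate (chr1:8861000-8878686, minus strand), stood at 2343 and 2374 CPM with vehicle and 1718, 1749 and 1807 with ATRA in normoxia. In hyperoxia it stood at 2001 and 2111 CPM with vehicle and 1446, 1516 and 1580.0 with ATRA, and the oxygen-alone libraries had 2225 and 2317 in normoxia and 2026 and 2003 in hyperoxia. The ATRA libraries were again below all others. The test gave a log2 fold change of -0.42, with a standard error of 0.11 and an adjusted p = 0.0489 in normoxia and -0.44 (adjusted p = 0.0258) in hyperoxia. Both calls were close to the threshold, and in normoxia ENO1 lost it without ATRA replicate 1 (0.134) or 2 (0.0629) or vehicle replicate 1 (0.384) or 2 (0.374). In hyperoxia ENO1 lost it without ATRA replicate 1 (0.11) or 2 (0.0693) or vehicle replicate 1 (0.179) or 2 (0.314). The fit of 14 libraries lost both calls (0.0894 in normoxia and 0.0528 in hyperoxia), as did the oxygen-alone controls (0.189 and 0.0858), and only the groups compared lost that in normoxia (0.203).

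PKM, the pyruvate kinase, was the third member whose ATRA libraries did not overlap the others, at 3092 to 3780.0 CPM against 4012 to 5081. Its log2 fold change was -0.43 in normoxia (adjusted p = 0.0514) and -0.40 in hyperoxia (adjusted p = 0.0505), so neither passed by edgeR. In hyperoxia PKM did pass in 5 of 8 alternative fits, by DESeq2 (8.69e-05), with only the groups compared (0.0177), with pooled controls (0.0146), with no filter (0.0188) and with library totals in place of TMM (0.0423). In normoxia PKM passed by DESeq2 (2.63e-05), with no filter (0.0177), with library totals (0.0206) and without ATRA replicate 1 (0.0279). Among the 35 members, 3 were lower without overlap in the ATRA libraries and none was higher, beside 0.235% and 0.561% of all genes.

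GAPDH stood at 4931 and 4742 CPM with vehicle and 4152, 3545 and 3900.2 with ATRA in normoxia, and at 4717 and 4745 with vehicle and 3145, 3239.8 and 3421 with ATRA in hyperoxia. The groups did not overlap at either oxygen level, but the oxygen-alone hyperoxia libraries (3945 and 4394 CPM) lay between the vehicle and the ATRA libraries. The test gave a log2 fold change of -0.53, with a standard error of 0.11 and an adjusted p = 0.00687 in hyperoxia and -0.32 (adjusted p = 0.22) in normoxia. The hyperoxia call was lost without vehicle replicate 1 (0.0906) or 2 (0.0949), and against the oxygen-alone libraries, where the difference was -0.35 (adjusted p = 0.177). In normoxia DESeq2 called GAPDH (0.00567). GAPDH is often used to scale measurements between samples, and in hyperoxia it differed between the ATRA and the vehicle libraries here.

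LDHB stood at 647 and 642 CPM with vehicle and 470.2, 419.8 and 507 with ATRA in hyperoxia, and at 823 and 756 with vehicle and 566, 606 and 633 with ATRA in normoxia. The test gave a log2 fold change of -0.47, with a standard error of 0.12 and an adjusted p = 0.0339 in hyperoxia and -0.39 (adjusted p = 0.134) in normoxia. Against the oxygen-alone hyperoxia libraries, at 407 and 563 CPM, the difference in hyperoxia was -0.05 (adjusted p = 0.848). In normoxia DESeq2 called LDHB (0.0069). The hyperoxia call of LDHB was also lost in the fit of 14 libraries (0.183), with pooled controls (-0.29, adjusted p = 0.37) and without ATRA replicate 1 (0.073) or 2 (0.123) or vehicle replicate 1 (0.314) or 2 (0.261).

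**Figure D5:**
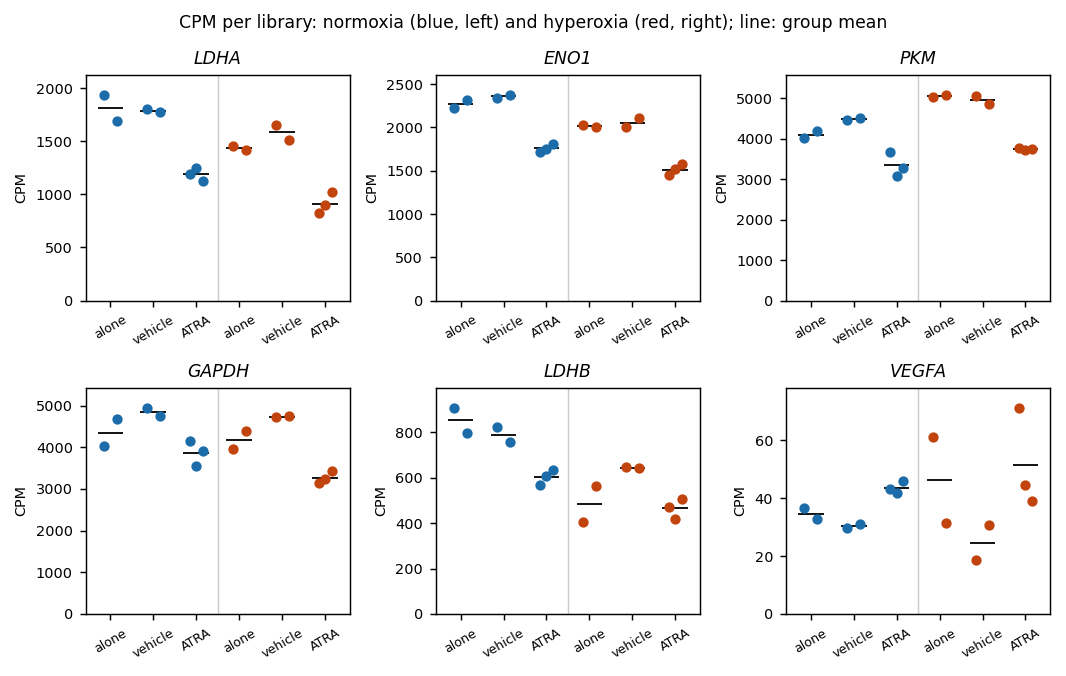
CPM per library of LDHA, ENO1, PKM, GAPDH, LDHB and VEGFA in the 6 groups, normoxia on the left of each panel and hyperoxia on the right. Points are libraries and lines group means; the ATRA libraries of LDHA lie between 821 and 1246 CPM and the others between 1416 and 1934.

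PFKFB3 rose with ATRA in hyperoxia. From the values given above, the 3 ATRA libraries lay above the vehicle libraries at each oxygen level, and the hyperoxia ATRA libraries stood near the normoxia vehicle level. The test gave a log2 fold change of 0.75, with a standard error of 0.12 and an adjusted p = 0.00129 in hyperoxia and 0.49 (adjusted p = 0.0512) in normoxia. The hyperoxia call was lost without vehicle replicate 1 (adjusted p = 0.0826), and the normoxia value passed without ATRA replicate 2 (0.0308), by DESeq2 (7.64e-04), with no filter (0.0221), with RLE size factors (0.0493) and with pooled controls (0.0275).

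VEGFA stood at 18.6 and 30.7 CPM with vehicle, 61.1 and 31.3 with oxygen alone and 71.0, 44.4 and 39.0 with ATRA in hyperoxia. In normoxia it stood at 29.5 and 31.2 CPM with vehicle, 36.5 and 32.9 with oxygen alone and 43.3, 41.8 and 45.8 with ATRA. The ATRA libraries lay above the vehicle libraries at each oxygen level, but hyperoxia oxygen-alone replicate 1 lay among the ATRA libraries. The test gave a log2 fold change of 1.06, with a standard error of 0.26 and an adjusted p = 0.0309 in hyperoxia and 0.52 (adjusted p = 0.597) in normoxia. In hyperoxia the call was lost without ATRA replicate 1 (0.73, adjusted p = 0.154) or vehicle replicate 1 (0.75, adjusted p = 0.608), and against the oxygen-alone libraries the difference was 0.15 (adjusted p = 0.808). It was also lost in the fit of 14 libraries (0.224), with pooled controls (0.53, adjusted p = 0.463) and with only the groups compared (0.0933).

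ADM fell with ATRA in hyperoxia (log2 fold change -0.68, standard error 0.17, adjusted p = 0.0323), and its difference in normoxia was -0.41 (adjusted p = 0.595). The hyperoxia ATRA libraries remained above every normoxia library. The call of ADM was lost without ATRA replicate 1 (0.073) or 2 (0.0884) or vehicle replicate 1 (0.157) or 2 (0.468). It was also lost in the fit of 14 libraries (0.119), with pooled controls (0.0607) and against the oxygen-alone libraries (-0.50, adjusted p = 0.21). KDM3A and PFKFB4, the other members that rose with hyperoxia, were not called with ATRA by edgeR (-0.04 and -0.41 in hyperoxia).

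From the pathway lists, edgeR called 0 genes in normoxia, where 3 of 22 further HIF targets and 1 each of the glycolysis, pyruvate and pentose phosphate lists had an unadjusted p under 0.05. In hyperoxia 1 of 14 HIF regulators, 3 of 22 further targets and 1 of 17 further glycolysis genes passed, which is 7.14%, 13.6% and 5.88% of these lists beside 2.21% of all genes. EGLN2, a prolyl hydroxylase of the HIF alpha subunits, rose by 0.73 (adjusted p = 0.0246), DDIT4 by 1.05 (0.00338), ANGPTL4, an inhibitor of lipoprotein lipase, by 0.97 (0.0252) and PCK2 by 1.70 (0.0019). PLOD2 fell, with a log2 fold change of -0.87 (9.71e-05). For PLOD2, DDIT4 and PCK2 the sign with ATRA was opposite to that of hyperoxia with vehicle, and both differences use the same hyperoxia vehicle libraries. Of these 3 genes only PLOD2 was called by the interaction test below.

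With 1 library left out, PLOD2 kept its ATRA call in all 5 fits. DDIT4 lost it without hyperoxia vehicle replicate 1 (adjusted p = 0.11) or 2 (0.0503), and PCK2 without vehicle replicate 2 (0.136). ANGPTL4 lost it without ATRA replicate 1 (0.0665) or 2 (0.0764) or vehicle replicate 1 (0.144) or 2 (0.429). In the other fits, PCK2 lost the call in the fit of 14 libraries (0.326), with pooled controls (0.0503) and against the oxygen-alone libraries (0.144), and DDIT4 against the oxygen-alone libraries (0.152). ANGPTL4 lost it in the same 3 fits as PCK2 (adjusted p = 0.162, 0.189 and 0.34, the last with a log2 fold change of 0.50), as did EGLN2 (0.12, 0.0679 and 0.192), which also lost it with only the groups compared (0.0554). EGLN2 lost it too without ATRA replicate 2 (0.123) or 3 (0.0619) or vehicle replicate 1 (0.319) or 2 (0.242).

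Whether the effect of ATRA differed between the oxygen levels was tested by an interaction term. By edgeR 0 of the 35 members passed, beside 0.14% of all genes, SLC2A1 alone had an unadjusted p under 0.05 (0.50, adjusted p = 0.531) and DESeq2 also called 0. For PFKFB3 the difference between the effects was 0.26 (standard error 0.17, adjusted p = 0.833), for VEGFA 0.54 (standard error 0.36, adjusted p = 0.833) and for LDHA -0.21 (standard error 0.16, adjusted p = 0.853). Calls of GAPDH, LDHB, PFKFB3, VEGFA and ADM in hyperoxia alone are not shown to be particular to hyperoxia, nor are the calls of HK1, PFKP, GPI, TPI1 and LDHA in the ATRA libraries shown to be particular to ATRA. Among pathway genes, PLOD2 alone of 22 further HIF targets passed, with 0 of 17 further glycolysis genes and 0 of 13 pyruvate genes. The smaller oxygen changes of DDIT4, PCK2 and PC with ATRA are therefore not shown to differ from those with vehicle.

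The vehicle libraries were compared with the oxygen-alone libraries as a check on the controls. With 2 libraries a group this check has little power, so an absence of calls does not show that the controls were alike. By edgeR 0 of 35 members passed at either oxygen level, beside 0 of 15339 genes in normoxia and 1 gene (0.00652%) in hyperoxia. DESeq2 called 0 members in either, and 0 members in normoxia and 3 in hyperoxia had an unadjusted p under 0.05. With hyperoxia oxygen-alone replicate 2 left out, so that replicate 1 stood alone, 10 members passed in hyperoxia, and without replicate 1 none did.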

How the data were processed

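RNA from A549 cells was sequenced with a directional kit in 15 libraries, of which 14 were compared and 1, with conflicting labels, was not. According to the submitters' processing notes, reads were trimmed with Trimmomatic 0.38, aligned to hg38 with HISAT2 and counted with HTSeq, and DESeq2 was used. The authors deposited raw counts per gene for each library. Which annotation release was used, and how HTSeq treated strand and overlapping genes, is not given in the sources used here. Rows that name no gene, which held 75.2% to 78.4% of each library's row counts (48.6% to 55.3% without a feature), were left out.

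Counts were filtered (filterByExpr, minimum count 10, minimum total 15), scaled by TMM and tested with the quasi-likelihood test of edgeR 4.0.16 in R 4.3.3, with Benjamini-Hochberg adjusted p over all genes tested. The vehicle and ATRA groups were fitted together (10 libraries, 4 groups), and comparisons with oxygen-alone libraries in a fit of 14 libraries and 6 groups. CPM use the TMM scale of 14 libraries. Python 3.11.15, pandas 2.3.3 and matplotlib 3.10.9 were used for annotation and figures. The fit was tested on simulated data. DESeq2 1.42.0 and other settings were alternatives.

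Members and lists were chosen with earlier results of these data known. Genes given with every library's value are the members called with hyperoxia in vehicle libraries or with ATRA in hyperoxia. Pathway genes were named where they were called in most of the oxygen comparisons, up to a set number by smallest p with vehicle. Those called with ATRA in hyperoxia were named too. HIF1A, PFKP, PKM, HK2, SLC2A1, EPAS1, TIGAR and LDHA's promoter were chosen after their values were seen.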

Additional observations from a re-analysis of the deposited data

Results flagged for a closer look

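The effect of ATRA on PLOD2 differed between the oxygen levels. The interaction term was -1.20 on the log2 scale (standard error 0.17, edgeR quasi-likelihood adjusted p = 0.00173). PLOD2 stood at 153 and 169 CPM with vehicle and 194, 213 and 201 with ATRA in normoxia, and at 692 and 630.1 with vehicle and 359, 336 and 388 with ATRA in hyperoxia. All 3 ATRA libraries lay below both vehicle libraries in hyperoxia and above both in normoxia.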

How the results depend on the processing

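No paired analysis was possible because the labels number no replicates, so that replicate numbers only name libraries in accession order. No called value changed sign in any alternative. Among uncalled values, VEGFA in the vehicle comparison of oxygen was 0.12 with pooled controls against -0.29. In the vehicle comparison of hyperoxia with normoxia, members called numbered 3 in the fit of 14 libraries, 11 by DESeq2, 12 with only the groups compared and 10 with pooled controls, beside 5, and all genes called numbered 1420 in the fit of 14 libraries and 4665 with only the groups compared, beside 2616. In the oxygen-alone comparison DESeq2 called 11 members, and only the groups compared gave 1 member and 58 genes. In the ATRA comparison of oxygen the fit of 14 libraries called 1975 genes and pooled controls 2073. For ATRA in hyperoxia, 3 members and 116 genes passed in the fit of 14 libraries, 522 genes with no filter on low counts and 182 with pooled controls. For ATRA in normoxia, 1 member and 70 genes passed in the fit of 14 libraries, 6 members and 286 genes by DESeq2, 5 members and 300 genes with no filter, and 1 member with only the groups compared. With the oxygen-alone libraries as controls of ATRA, an alternative chosen after seeing the data, 2 members and 66 genes passed in hyperoxia and 1 member and 67 genes in normoxia. The causes were not tested.

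With 1 library left out, the counts of members and of all genes ran from 2 to 4 and 1386 to 1523 in the vehicle, from 9 to 14 and 2715 to 3359 in the ATRA, and from 3 to 16 and 969 to 7364 in the oxygen-alone comparison of oxygen. They ran from 0 to 2 and 56 to 165 for ATRA in normoxia, from 1 to 7 and 83 to 449 for ATRA in hyperoxia, and from 0 to 10 members for vehicle against oxygen alone in hyperoxia. With a library left out, uncalled log2 fold changes that changed sign ran from -0.26 to 0.024 for GPI, -0.19 to 0.077 for TPI1, -0.38 to 0.26 for SLC2A1, -0.15 to 0.76 for VEGFA and -5.82 to 0.50 for HK2 in the oxygen-alone comparison, from -0.073 to 0.41 for VEGFA in the ATRA comparison of oxygen, and from -0.12 to 0.051 for KDM3A with ATRA in hyperoxia. For genes given by name, 432 values kept their side of the threshold, 79 lost and 7 gained a call and 9 changed sign with a library left out, and 615 kept it, 56 lost, 36 gained and 1 changed sign under the other alternatives. With 2 or 3 libraries a group and at most 5605072 gene counts, members with few counts, such as HK2, ALDOC, PDK1 and CA9, have wide errors.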

Other observations

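The library whose labels give 2 different conditions, and which entered no comparison, had 1.83% of its gene counts on the 17 glycolytic enzymes.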
